A study of Mus musculus with 14 samples.

Results

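The 10 genes described here belong to the Nodal and BMP branches of TGF-beta signaling. They were chosen by name, with earlier results of these data known, out of 23298 genes. The genes were measured by RNA sequencing in 14 lines of mouse embryonic stem (ES) cells. All 10 were found and passed the filter on low values. Of these, 3 are ligands (Nodal, Gdf3 and Bmp4), Tdgf1 is a co-receptor, Lefty1, Lefty2 and Smad7 are inhibitors, and Id1, Id2 and Id3 are BMP target genes.

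In this family, a ligand dimer brings type I and type II receptors together, and the receptors phosphorylate SMAD proteins that enter the nucleus. Nodal acts through SMAD2 and SMAD3 with the co-receptor encoded by Tdgf1 (Cripto), and its targets Lefty1 and Lefty2 encode secreted inhibitors that feed back on it. BMP4 acts through SMAD1, SMAD5 and SMAD9 and induces the Id genes, whose products block basic helix-loop-helix transcription factors. In mouse ES cells, serum or BMP together with leukemia inhibitory factor (LIF) sustains self-renewal, and Nodal is made by the cells themselves.

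The lines came from reciprocal crosses of the substrains C57BL/6J (B) and CAST/EiJ (C), with the maternal strain written first, and were not treated with any agent beyond the culture medium with serum and LIF. Each was grown from a single F1 blastocyst on mouse embryonic fibroblast feeders, which were depleted before RNA was extracted, so that a line is an independent embryo. XX and XY cells were represented by 3 lines per cross, and 2 BC XO lines arose spontaneously in the BC cross only. The 3 CB XX lines are numbered here by the order of their columns.

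The value of a gene in a line is a read signal that the authors scaled to a common depth, here called signal. If the smallest step of the values is 1 read, the lines hold 11904424 to 69646376 reads, and the 10 genes were far above the limit of 3 reads in every line. All 8 ES cell markers were present in every line. RNA of 20 feeder fibroblast markers summed to 51376 to 123893 in the BC XX lines and to between 5936 and 33069 in the 11 others, so that RNA of feeders moved with the group BC XX. The lines CB XY 2 and 3, labelled as XY, hold little RNA of the Y-linked gene Uty (19.6 and 45.4), which goes against their label. Uty was at 945 to 2088 in the BC XY lines and 1149 in CB XY 1. Ddx3y was also low in CB XY 2 and 3 (27.0 and 126, against 1084 in CB XY 1), but was at 328 to 1024 in BC XX lines. Kdm5d did not follow the labels, at 22.2 in CB XY 1, 4.91 in CB XY 2, 22.1 in CB XY 3 and 6.02 in BC XY 3. Eif2s3y was at 76.7, 2.46 and 32.5 in CB XY 1, 2 and 3, but at 102 to 317 in BC XX lines. The median log2 deviation of 384 X-linked genes from their means over lines was -0.47 in CB XY 2 and -0.19 in CB XY 3. It was 0.27 to 0.51 in the XX lines and -0.43 to -0.15 in the other XY lines. Results that rest on CB XY 2 and 3 are given with and without them. Fewer cells of a type and less RNA per cell cannot be told apart in these data.

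Per kilobase of exon, which allows genes to be compared, Tdgf1 had the highest mean signal over the 14 lines (8997 ± 2070 SD), followed by Lefty2 (2877 ± 1117) and Gdf3 (1475 ± 384). Tdgf1 was above Lefty2 in 14 of 14 lines, Lefty2 above Gdf3 in 14 of 14, and Gdf3 above the next gene, Id2, in 12 of 14. The middle of the order was not resolved between lines. Id2 (1075 ± 662), Nodal (971 ± 152) and Lefty1 (944 ± 340) followed each other, but Id2 exceeded Nodal in only 6 lines and Nodal exceeded Lefty1 in 8. Id1 (807 ± 289), Id3 (704 ± 417), Bmp4 (492 ± 275) and Smad7 (331 ± 92.8) were lowest. Thus the inhibitor gene Lefty2 was present at a higher level per kilobase than the gene of the ligand it inhibits in every line.

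**Figure D1:**
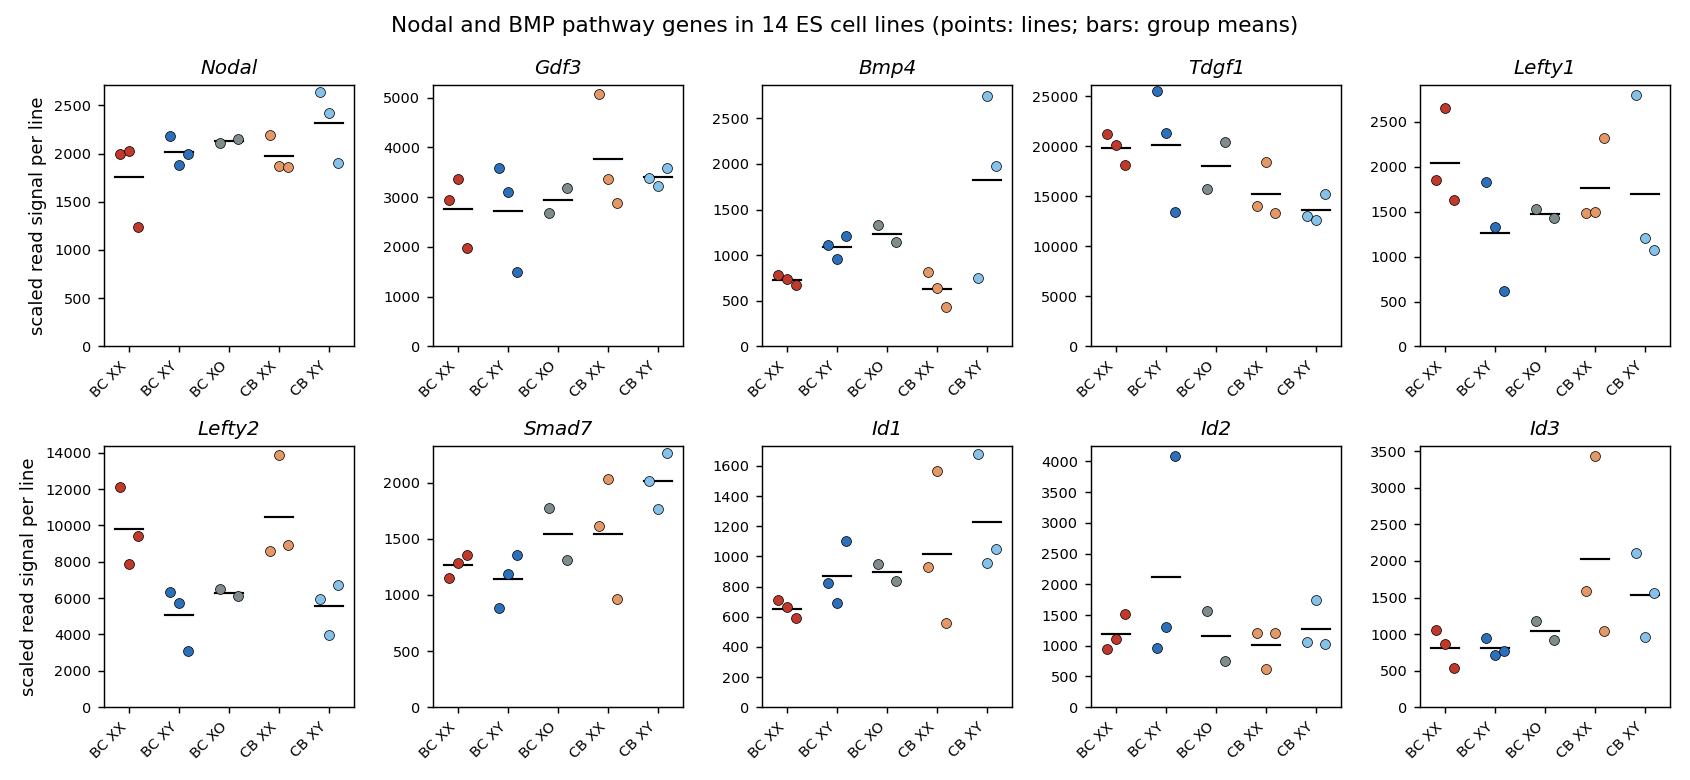
Signal of each of the 10 genes (vertical axes, scaled read signal, starting at 0) in the 14 lines, by group; points are lines and bars are group means. Lefty2 is higher in all 6 XX lines than in all 6 XY lines, Bmp4 is highest in the lines CB XY 2 and 3 (2751 and 1981), and Id2 is highest in BC XY 3 (4083).

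To ask whether the sex chromosome complement goes with the level of these genes, the 6 XX lines were compared with the 6 XY lines. Lefty2 was higher in XX lines, Bmp4 was lower but did not pass the threshold, and none of the other 8 genes passed it. With limma on log2(signal + 5), a scale that understates the change of genes with low values, 1 of the 10 genes had an adjusted p under 0.05, against 5.21% of all 15311 genes tested. p-values measure the spread between lines.

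Lefty2, a secreted Nodal inhibitor on chromosome 1 (182823239 to 182829234 in mm9, plus strand), had a signal of 12101, 7878 and 9391 in the BC XX lines and 6357, 5734 and 3080 in the BC XY lines. In the CB cross it was 8611, 13848 and 8931 in XX lines and 5956, 3998 and 6698 in lines labelled XY. The lowest XX line thus lay above the highest XY line. Over both crosses the mean was 10127 ± 2327 (SD, n = 6) in XX and 5304 ± 1436 (SD, n = 6) in XY lines, a difference of 0.96 ± 0.20 (SE) on the log2 scale or 1.94-fold, with a 95% interval of 0.53 to 1.38 and an adjusted p of 0.0162 by limma. Groups that did not overlap were found for 3.52% of all genes tested, and for Lefty2 alone among the 10. The difference was 0.96 without the lines CB XY 2 and 3 as well (adjusted p = 0.0481, limma), and the call held whichever single line was left out.

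Within the crosses the difference was of much the same size. It was 1.00 ± 0.28 (SE) in BC lines (adjusted p = 0.0499, limma), where 5.70% of the 16261 genes tested were called, and 0.91 ± 0.28 in CB lines (adjusted p = 0.0898), where 3.57% were called. Without CB XY 2 and 3, the CB difference was 0.78 (adjusted p = 0.428). The difference between the crosses was 0.09 ± 0.39, with a 95% interval of -0.75 to 0.93. In BC lines the call lies at the threshold, and it was lost under 7 of 11 alternative settings.

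Feeder RNA moved with Lefty2. Across the 14 lines, Lefty2 and the mean log2 level of the feeder markers had a Pearson correlation of 0.73 as a description, and 0.64 after group means were removed. With the feeder level as a covariate, the XX minus XY difference was 0.68 and was no longer past the threshold (adjusted p = 0.185, limma). The same covariate left 0.15 in BC lines (adjusted p = 0.933), where the feeder sums of XX and XY lines do not overlap. It left 0.79 in CB lines (adjusted p = 0.0693), where they do overlap (11524 to 33069 in XX lines and 7385 to 27163 in lines labelled XY). In BC lines feeder RNA and sex cannot be told apart. RNA of chromosome 1 itself also varied, with a median deviation of its 593 genes of 0.33 (log2) in CB XX 1, of -0.14 to -0.10 in the 3 CB XY lines and of -0.06 to 0.13 in the others. Its part in Lefty2 was not tested.

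Lefty1, the neighbouring gene at 182865153 to 182868531 on chromosome 1, lies 35918 bases from Lefty2 and encodes a closely related inhibitor. Its signal was 1848, 2648 and 1625 in BC XX, 1833, 1334 and 620 in BC XY, 1480, 1493 and 2315 in CB XX and 2801, 1203 and 1076 in CB XY lines. The groups overlapped, and the XX minus XY difference of 0.48 had a 95% interval of -0.14 to 1.10 (adjusted p = 0.341, limma). Of the 1562 windows of 50 bases (the read length) in Lefty1 exons, 303 are also found in Lefty2, and 15.4% of Lefty2 windows occur elsewhere in the genome, so that some reads cannot be assigned between both genes. Lefty1 was highest in CB XY 1, and high in CB XX 3, the lines in which the 560 chromosome 8 genes had the highest median deviation from their means (0.33 and 0.29 on the log2 scale, against -0.19 to 0.05 in the 12 others). The second highest Lefty1 value was in BC XX 2, where that deviation was -0.11. The part of chromosome 8 in the spread of Lefty1 was not tested.

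Nodal, on chromosome 10 (60880720 to 60888086), varied least among the 10 genes, with an SD of 0.24 (log2) within groups. Its signal was 1992, 2030 and 1240 in BC XX and 2182, 1880 and 1995 in BC XY lines. It was 2192, 1874 and 1859 in CB XX, 2642, 2419 and 1902 in CB XY, and 2111 and 2150 in XO lines. XX and XY lines overlapped, with a difference of -0.23 and a 95% interval of -0.54 to 0.08 (adjusted p = 0.365, limma), which excludes a Nodal difference as large and in the same direction as that of Lefty2.

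The ratio of the inhibitor to its ligand within a line does not depend on the scaling between lines. The Lefty2 to Nodal ratio per kilobase lay between 3.11 and 6.08 (median 4.33) in the 6 XX lines and between 1.24 and 2.83 (median 2.06) in the 6 XY lines. The groups did not overlap, and the log2 difference was 1.19 (exact permutation test, two-sided, p = 0.002165, the smallest this design allows, or 0.0108 after adjustment over 10 tests of ratios). By group the medians were 4.87 in BC XX, 2.34 in BC XY, 3.86 in CB XX and 1.81 in CB XY lines. The XO lines were at 2.46 and 2.28, below all XX lines. In contrast, the Lefty2 to Lefty1 ratio overlapped between XX lines (median 3.91) and XY lines (median 2.60), with an adjusted exact p of 0.289. These ratios were chosen after the values had been seen. Feeder RNA moved with both genes of the first ratio, since the mean log2 level of the feeder markers had a correlation of 0.73 with Lefty2 and of -0.56 with Nodal over the 14 lines. With that level as a covariate (least squares, chosen after seeing the data), the log2 difference of the Lefty2 to Nodal ratio was 0.77 ± 0.29 (SE) over both crosses, 0.22 ± 0.98 in BC lines and 0.95 ± 0.22 in CB lines, where it had been 1.19, 1.23 and 1.14.

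**Figure D2:**
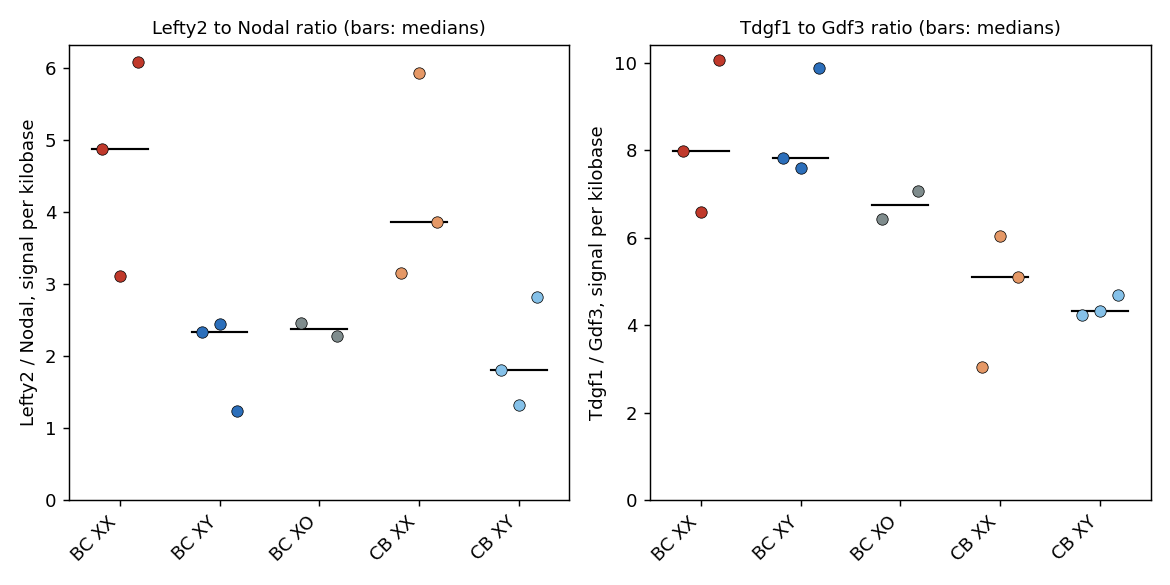
Ratios of signal per kilobase (vertical axes, starting at 0) in each line, by group; points are lines and bars are medians. Left, Lefty2 to Nodal, with all 6 XX lines at or above 3.11 and all XY and XO lines at or below 2.83. Right, Tdgf1 to Gdf3, with BC XX and XY lines between 6.59 and 10.1 and CB lines between 3.05 and 6.05.

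Bmp4, the BMP ligand gene on chromosome 14 (47003195 to 47010344, minus strand), went the other way. Its signal was 784, 740 and 669 in BC XX and 1114, 955 and 1216 in BC XY lines. It was 816, 637 and 432 in CB XX lines and 755, 2751 and 1981 in lines labelled CB XY. In the BC cross the XX lines lay below the XY lines without overlap, as was the case for 27.1% of all genes in either direction, and in the CB cross only CB XY 1 overlapped the XX lines. There, 23.2% of all genes were free of overlap in either direction, Lefty2 among them.

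Over both crosses Bmp4 differed by -0.98 ± 0.28 (log2, XX minus XY), with a 95% interval of -1.58 to -0.39 and an adjusted p of 0.0559 (limma), just short of the threshold. It passed with the cross as a covariate (adjusted p = 0.0367). In CB lines the difference was -1.39 ± 0.36 (adjusted p = 0.0456, limma, and 0.162 with the compared groups alone) and was called lower in XX, while in BC lines it was -0.58 ± 0.36 (adjusted p = 0.36). The interaction of sex and cross was 0.82 ± 0.50 (adjusted p = 0.678), so that a difference between the crosses was not shown. The CB call rests on the lines CB XY 2 and 3, since without them the difference was -0.31 (adjusted p = 0.73), and over both crosses it was then -0.57 (adjusted p = 0.178). With the feeder covariate the CB difference was -1.27 (adjusted p = 0.0408) and that over both crosses -0.89 (adjusted p = 0.272).

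These lines also differ in other measures. The 493 chromosome 6 genes had their highest median deviations in CB XY 2 (0.34), CB XY 3 (0.28) and CB XX 1 (0.27), and Bmp4 was high in the former pair but not in CB XX 1. Of the 50 genes whose levels followed Bmp4 most closely across lines, 17 were on chromosome 6 (34.0%, against 4.96% of all genes compared). Summed signal of 8 primitive endoderm markers was 11674 in CB XY 2 and 8507 in CB XY 3, within the range of the other lines (3682 to 12079). A single gene, Lama1, gave 93.8% and 80.9% of these sums (10954 and 6884), while it gave 61.3% to 84.6% in the other lines. As the mean log2 level of the 8 markers, the lines were at 7.11 and 7.79, against 6.81 to 8.48 in the others, and Bmp4 had a Pearson correlation of -0.72 with this mean across the 14 lines after group means were removed (0.12 before), as a description. Their part in the Bmp4 values was not tested.

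**Figure D3:**
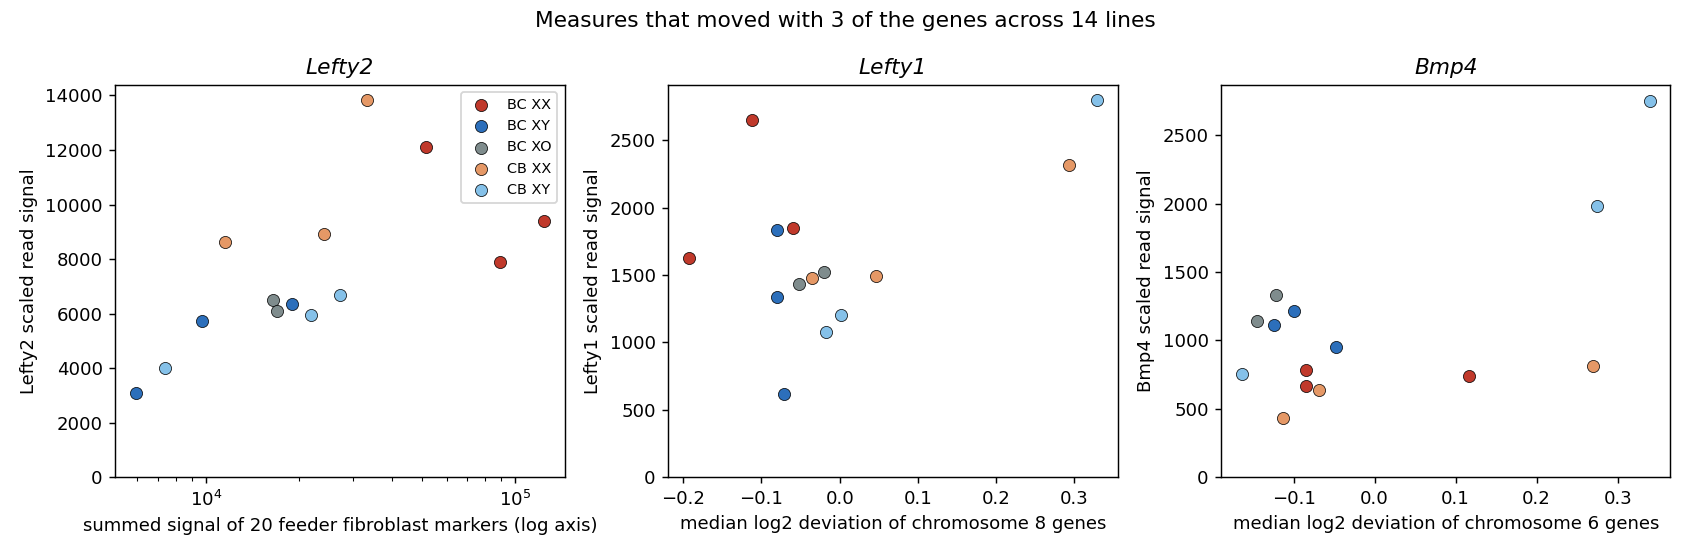
Signal of Lefty2, Lefty1 and Bmp4 (vertical axes, starting at 0) against another measure of the same lines. The gene and the measure are not always high in the same lines. Points are the 14 lines colored by group. Left, the summed signal of 20 feeder fibroblast markers on a log axis, high in BC XX lines (51376 to 123893); middle and right, the median log2 deviation of genes on chromosome 8 and chromosome 6, with CB XY 1 and CB XX 3 or CB XY 2, CB XY 3 and CB XX 1 set apart.

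Upstream sequences are shown for Bmp4, the ligand gene nearest to the threshold over both crosses, and for Id2 and Id3, targets of its pathway that were not called. They are the 250 bases before the annotated start, from RefSeq (GRCm38.p6), 5′ to 3′ on the strand of the gene. RefSeq entries were matched for 5 of the 10 genes, the others being Nodal and Tdgf1. Each window occurs once, unchanged, on its own chromosome in mm9, and other chromosomes were not searched. Capitals mark GGCGCC, a GC-rich element bound by BMP SMADs, and the CCAAT box, on either strand.
Bmp4 promoter, chr14:46390670-46390919, minus strand: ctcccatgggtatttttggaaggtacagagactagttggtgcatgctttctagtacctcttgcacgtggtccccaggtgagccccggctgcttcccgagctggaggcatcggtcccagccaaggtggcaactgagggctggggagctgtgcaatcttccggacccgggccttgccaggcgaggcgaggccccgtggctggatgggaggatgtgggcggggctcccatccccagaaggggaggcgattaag
Id2 promoter, chr12:25096093-25096342, minus strand: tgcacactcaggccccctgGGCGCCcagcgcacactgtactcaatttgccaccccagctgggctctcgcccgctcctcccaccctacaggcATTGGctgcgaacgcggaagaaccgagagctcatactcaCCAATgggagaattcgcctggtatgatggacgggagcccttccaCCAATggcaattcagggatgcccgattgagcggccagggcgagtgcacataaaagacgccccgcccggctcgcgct
Id3 promoter, chr4:136143572-136143821, plus strand: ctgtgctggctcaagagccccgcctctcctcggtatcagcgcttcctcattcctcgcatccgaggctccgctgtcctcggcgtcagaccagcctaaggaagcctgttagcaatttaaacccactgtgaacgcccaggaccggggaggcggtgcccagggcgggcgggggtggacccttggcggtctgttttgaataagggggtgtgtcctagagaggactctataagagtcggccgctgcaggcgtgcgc

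Searched on both strands were also the SMAD box (letters GTCT), its palindrome (letters GTCTAGAC, which hold a SMAD box), the FOXH1 element (letters AATNCACA, where N is any base) and the TATA box (letters TATAAA). In Id2, the GC-rich element occurs once, at -231 from the start, and the CCAAT box 3 times. Neither lies in the windows of Bmp4 or Id3, and the SMAD palindrome, the FOXH1 element and the TATA box are in none of the 3 windows. The SMAD box occurs once in Bmp4 and Id2 and 2 times in Id3. Of 32851 promoter windows of this length, 9.59% hold the GC-rich element, 82.9% the SMAD box, 0.167% its palindrome, 3.18% the FOXH1 element, 12.4% the TATA box and 33.8% the CCAAT box. The windows are rich in G and C (63.2% in Bmp4 and 62.8% in Id2 and Id3, against a median of 52.4%). A match is a description of letters only.

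The 3 Id genes, read-outs of BMP signaling in many cell types, were not called in any comparison of groups. Id1 (chromosome 2) ranged from 559 in CB XX 3 to 1678 in CB XY 1, with an XX minus XY difference of -0.37 and a 95% interval of -0.92 to 0.18 (adjusted p = 0.412, limma). In BC XX lines it was 708, 664 and 590, and in BC XY lines 821, 691 and 1100, so that the groups overlapped. Id2 (chromosome 12) ranged from 620 in CB XX 2 to 4083 in BC XY 3, and no other line exceeded 1739. The 369 chromosome 12 genes had their lowest median deviation in CB XX 2 (-0.29, against -0.10 to 0.18 in the others), and its part in Id2 was not tested. Its difference of -0.46 had a wide 95% interval, from -1.15 to 0.23 (adjusted p = 0.411). Id3 (chromosome 4) ranged from 529 in BC XX 3 to 3431 in CB XX 2, with a difference of 0.13 and a 95% interval of -0.70 to 0.95 (adjusted p = 0.875). The intervals of all 3 genes include differences of 0.7 or more in size on the log2 scale.

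Smad7, on chromosome 18, encodes an inhibitory SMAD induced by both branches. Its signal was 1153, 1287 and 1357 in BC XX, 887, 1190 and 1357 in BC XY, and 1772 and 1314 in XO lines. It was 1615, 2036 and 967 in CB XX and 2016, 1768 and 2260 in CB XY lines. The XX minus XY difference was -0.14 with a 95% interval of -0.64 to 0.35 (adjusted p = 0.748, limma), and turned to 0.06 without the lines CB XY 2 and 3.

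Tdgf1 and Gdf3 are expressed highly in pluripotent cells. Tdgf1 (chromosome 9) was at 21244, 20070 and 18104 in BC XX, 25473, 21338 and 13422 in BC XY and 15674 and 20446 in XO lines. In the CB cross it was at 14045, 18415 and 13293 in XX lines and 13028, 12663 and 15245 in XY lines, which puts 5 of 6 CB lines below 7 of 8 BC lines. The XX minus XY difference of Tdgf1 was 0.09 with a 95% interval of -0.31 to 0.49 (adjusted p = 0.809, limma). Of its 50-base exon windows, 24.2% occur elsewhere in the genome, so that part of its reads could belong to copies.

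Gdf3, a TGF-beta family ligand gene on chromosome 6, was at 2938, 3363 and 1986 in BC XX and 3593, 3104 and 1499 in BC XY lines. In the CB cross it was at 5079, 3361 and 2876 in XX lines and 3395, 3225 and 3584 in XY lines, and the XO lines were at 2690 and 3191. XX and XY lines overlapped in both crosses. The XX minus XY difference was 0.09 (95% interval -0.41 to 0.60, adjusted p = 0.846, limma). The line with the highest Gdf3, CB XX 1, was among the 3 lines with raised chromosome 6 RNA described above. Gdf3 was at 3225 and 3584 in the others, CB XY 2 and CB XY 3.

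Within lines, the Tdgf1 to Gdf3 ratio per kilobase separated the crosses. It was 6.59 to 10.1 in the 6 BC XX and XY lines and 3.05 to 6.05 in the 6 CB lines, a log2 difference of 0.88 (exact permutation test, two-sided, p = 0.002165, or 0.0108 after adjustment over the 10 tests of ratios). This ratio too was chosen after the values had been seen, and the adjustment does not cover that choice. The XO lines of the BC cross were at 7.07 and 6.43, also above the CB lines. Gdf3 lies on chromosome 6, whose RNA was raised in CB XX 1 (0.27), CB XY 2 (0.34) and CB XY 3 (0.28). The ratio was 3.05, 4.34 and 4.70 in these lines, and 6.05, 5.10 and 4.24 in CB XX 2, CB XX 3 and CB XY 1. The part of chromosome 6 in the ratio was not tested. XX and XY lines did not differ in this ratio beyond their spread (adjusted exact p = 0.996), with ranges of 3.05 to 10.1 and 4.24 to 9.88.

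**Figure D4:**
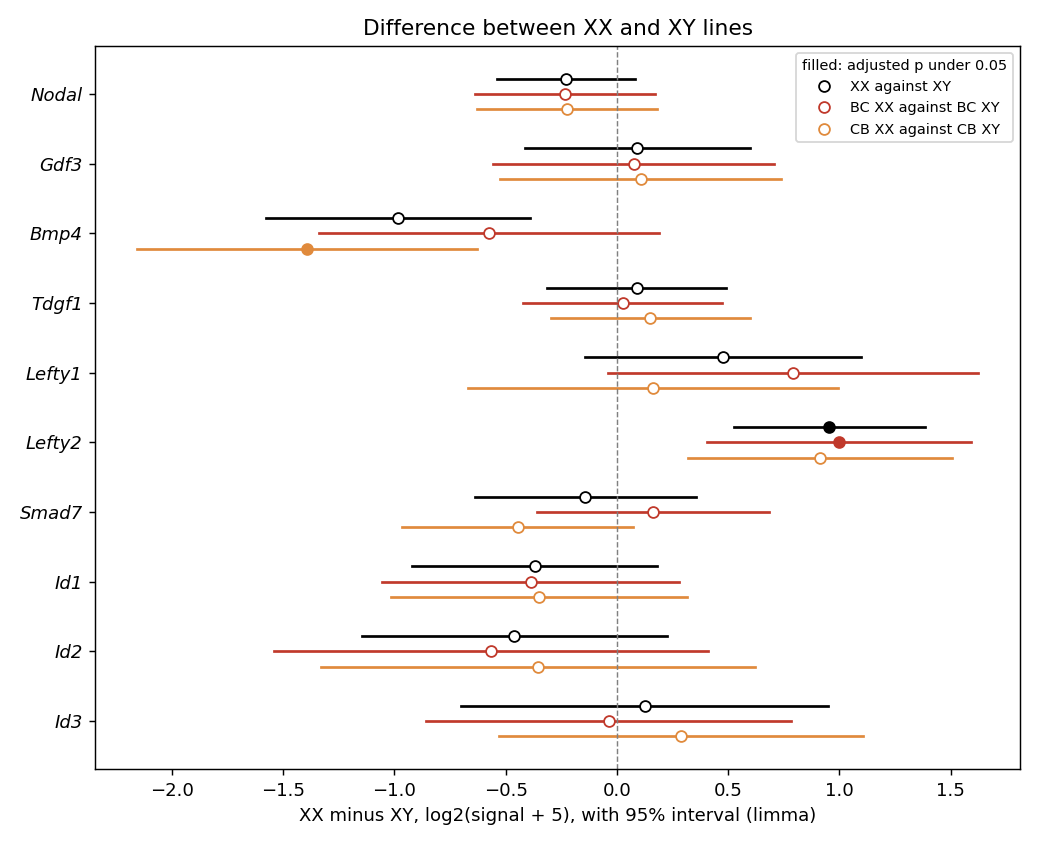
XX minus XY differences in log2(signal + 5) with 95% intervals from limma, for both crosses together (black, 6 against 6 lines) and for BC and CB lines (red and orange, 3 against 3 lines). Filled points have an adjusted p under 0.05 (Lefty2 in both crosses together and in BC lines, Bmp4 in CB lines), and all 3 intervals of Lefty2 lie above 0.

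The XO lines carry a single X chromosome and no Y, and were set against BC XX and BC XY lines, which share the cross. None of the 10 genes was called between BC XX and BC XO lines, where 4.66% of all genes were. The feeder sums of these groups do not overlap either (51376 to 123893 in BC XX and 16523 to 17034 in XO lines). Feeder RNA and the number of X chromosomes thus cannot be told apart in this comparison. Lefty2 was at 6483 and 6115 in the XO lines, below all 3 BC XX lines (difference 0.61, 95% interval -0.05 to 1.28, adjusted p = 0.248, limma). Bmp4 was at 1332 and 1143, above all 3 BC XX lines (difference -0.75, 95% interval -1.61 to 0.10, adjusted p = 0.269). Of the 10 genes, 5 did not overlap between these groups, Nodal, Lefty1, Lefty2, Id1 and Bmp4, against 47.2% of all genes, which is near that background. Between XO and BC XY lines, none of the 10 was called and none was free of overlap, against 0.00615% (1 gene) and 17.6% of all genes. At an unadjusted p under 0.05, limma picked 242 of all genes in this comparison and none of the 10. The intervals are wide, for Lefty2 from -0.28 to 1.05 (XO minus XY).

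Between crosses, none of the 10 genes passed the threshold. BC XY and CB XY lines differed in 0.640% of all genes, and Smad7 came nearest among the 10, with all BC XY lines below all CB XY lines (difference -0.83, adjusted p = 0.103, limma). Id3 was likewise without overlap, at 949, 714 and 766 in BC XY and 2106, 958 and 1558 in CB XY lines (difference -0.86, adjusted p = 0.242). Such a lack of overlap was seen for 26.8% of all genes. Without CB XY 2 and 3, the differences were -0.84 for Smad7 (adjusted p = 0.438) and -1.38 for Id3 (adjusted p = 0.379). BC XX and CB XX lines differed in 7.15% of all genes, and Id3 came nearest there (1054, 860 and 529 against 1595, 3431 and 1046, difference -1.19, adjusted p = 0.0718, limma). The feeder sums of these groups do not overlap (51376 to 123893 in BC XX and 11524 to 33069 in CB XX lines). Feeder RNA and cross thus cannot be told apart in XX lines. With the feeder covariate, the Id3 difference was -1.51 (adjusted p = 0.227, limma). No interaction of sex and cross was called for the 10 genes, against 0.0738% of all genes.

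Of 61 further genes of these pathways, 59 passed the filter, and 3 were called between XX and XY lines, a share near that of all genes (5.21%). Dusp9, an X-linked gene for a MAP kinase phosphatase and BMP target, was higher in XX lines (4275 ± 1412 SD against 2354 ± 358 SD, difference 0.80, adjusted p = 0.0486, limma). Acvrl1, a BMP type I receptor gene, was higher in XX lines at low levels (58.2 against 30.6, difference 0.79, adjusted p = 0.0492), and the difference was 0.54 with the feeder covariate (adjusted p = 0.388). Msx1, a homeobox target of BMP, was lower in XX lines. It was at 10.8, 9.36 and 6.94 in BC XX and 10.5, 15.8 and 8.89 in CB XX lines, against 26.3, 29.9 and 22.7 in BC XY and 199, 27.0 and 58.8 in CB XY lines. No XX line reached the lowest XY line, with a difference of -1.67 ± 0.42 (adjusted p = 0.0333). Without the lines CB XY 2 and 3, none of the 3 was past the threshold (differences of 0.90 for Dusp9, 0.71 for Acvrl1 and -1.72 for Msx1, adjusted p of 0.0934, 0.184 and 0.0948). Of the list of 7 further BMP targets, 3 had a positive difference (median -0.02), with Dusp9 called higher and Msx1 lower. The median difference of the 59 genes was -0.02, against -0.03 over all genes tested.

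By role, the BMP receptor list showed positive differences for 5 of 5 genes (median 0.62), of which 1 was called. In BC lines 5 of 5 were positive (median 1.025, 2 called), and in CB lines 4 of 5 (median 0.21, 0 called). Feeder markers were positive for 20 of 20 genes over both crosses (median 1.24), and the part of feeder RNA in the receptor list was not tested. The list of 6 Nodal target genes includes Eomes and Mixl1, transcription factor genes of the primitive streak. None of the 6 had a positive difference (median -0.26) and none was called, while 7165 of all 15311 genes tested had a positive difference. By cross, 3 of the 6 were positive in BC lines (median 0.05) and none in CB lines (median -1.41). This list does not hold the Nodal targets Lefty1 and Lefty2, whose differences were 0.48 and 0.96. Of the 6 genes, Eomes was nearest to the threshold (difference -1.08, adjusted p = 0.0919, limma). Among 5 Nodal receptors, 8 Nodal effectors, 5 BMP effectors, 6 Nodal ligand and processing genes and 4 Nodal antagonists, none was called. The same held for 7 BMP antagonists and for the 10 genes listed as BMP ligands, of which Bmp1 encodes a protease.

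In BC lines alone, the genes called were all higher in XX. Among them were Inhbb, an activin subunit (1.80), Bmp1, a protease that processes procollagen and the BMP antagonist chordin (1.60), Bmpr2, the BMP type II receptor (1.21), and Acvrl1 (1.08), with adjusted p of 0.0213 to 0.0283 (limma). Inhbb was at 440, 544 and 720 in BC XX lines and at 217, 128 and 138 in BC XY lines, without overlap. Feeder RNA moved with these genes, since 12 of 20 feeder markers were called higher in the same comparison (median 2.27). With the feeder level as a covariate, the difference of Bmpr2 was 0.35, those of Inhbb and Bmp1 were at or just below 0, that of Acvrl1 was 1.02, and none of these was called. In CB lines only Msx1 was called (difference -2.18, adjusted p = 0.0265). The call was lost without any single CB line other than CB XY 2, and with the compared groups alone (adjusted p = 0.122). Without CB XY 1, the line with the highest Msx1, the difference was -1.46 (adjusted p = 0.0778), and without CB XY 2 and 3 it was -3.63 (adjusted p = 0.00284).

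**Figure D5:**
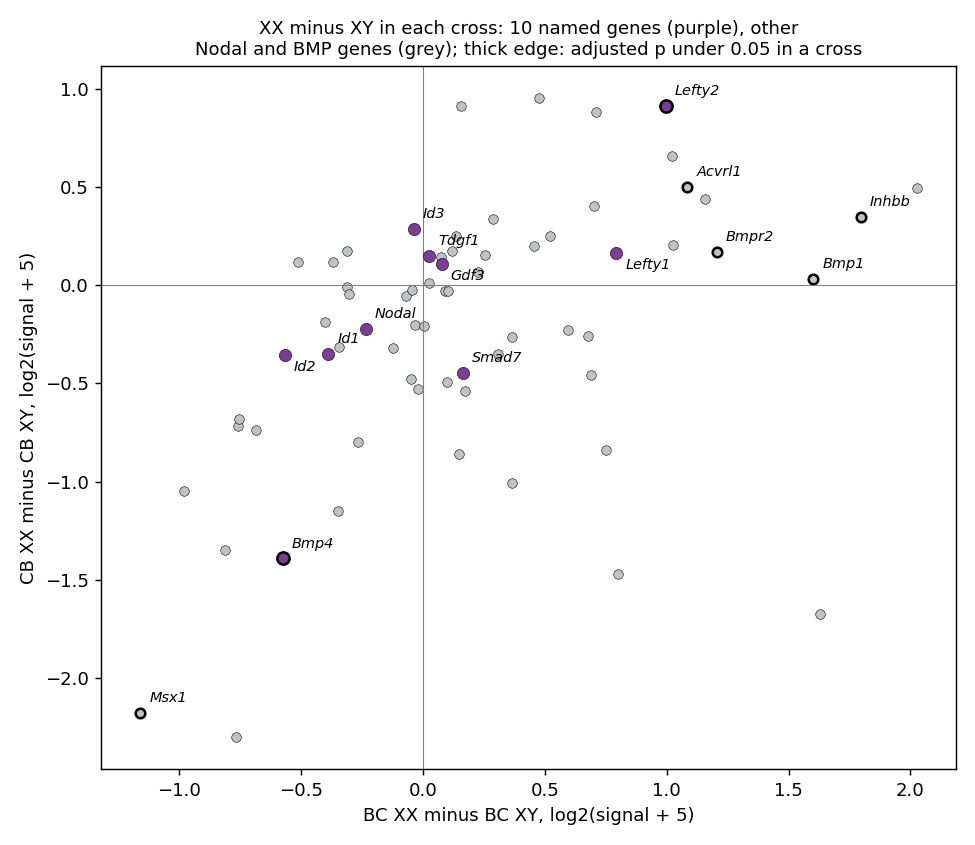
XX minus XY differences in log2(signal + 5) in BC lines (horizontal axis) and CB lines (vertical axis), for the 10 genes (purple) and other genes of the pathways (grey); thick edges mark an adjusted p under 0.05 in either cross. Lefty2 is at 1.00 and 0.91, Bmp4 at -0.58 and -1.39, and Inhbb at 1.80 in BC lines.

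The 10 genes varied at least as much between lines of a group as the median gene of like level. Their SD within groups ran from 0.24 (Nodal, against a median of 0.23 for genes of like level) to 0.68 (Id2, against 0.25), and all 10 were above that median. The share of the spread that lay between groups ran from 21.8% for Id2 to 66.5% for Lefty2, the highest of the 10, followed by Bmp4 at 60.9%. A single line, BC XY 3, held the lowest value of Lefty1 (620), Lefty2 (3080) and Gdf3 (1499) and the highest of Id2 (4083). This line also had the least feeder RNA (5936).

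Among the 45 pairs of the 10 genes, no pair passed after adjustment on Pearson's r. Id1 and Id3 came closest across the 14 lines (r = 0.78, rho = 0.60, permutation p = 0.0012, adjusted p = 0.054), and r was 0.85 after group means were removed. Without CB XY 1 and CB XX 2, the lines farthest from the median of Id1, r dropped to 0.48, so that the relation rests in part on them. Smad7 and Id1 were next (r = 0.74, rho = 0.79, permutation p = 0.00251, adjusted p = 0.0565), with 0.86 without the 2 farthest lines. The adjusted p for rho of this pair was 0.0495. It was weaker in the 8 BC lines (r = 0.25) than in the 6 CB lines (r = 0.84). Lefty2 and Id2 went in opposite directions (r = -0.72, rho = -0.48, permutation p = 0.00414, adjusted p = 0.0621), but r was -0.27 without BC XY 3 and CB XX 2. Nodal and its target Lefty2 were not positively related (r = -0.39, rho = -0.53, permutation p = 0.175, adjusted p = 0.393), and r was -0.11 after group means were removed.

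Of 16153 genes compared, those whose levels followed a member most closely over the 14 lines were Ptpmt1 for Lefty2 (r = 0.97), Hspa12a for Id2 (0.96), Serf2 for Nodal (0.94), Rps6kl1 for Gdf3 (0.94) and Bahd1 for Id3 (0.93). They were Hspa4 for Tdgf1 (0.91), Ap2a2 for Id1 (0.91), Plxnb2 for Smad7 (0.91), Itpr1 for Bmp4 (0.89) and Ing2 for Lefty1 (0.88). None of these nearest genes was itself one of the 10. Of the 50 genes nearest to Lefty2, 16 were X-linked (32.0%, against 3.91% of all genes compared), and of those nearest to Lefty1, 16 were on chromosome 8 (32.0%, against 5.16%). Lefty2 separated XX from XY lines, and so did the median level of X-linked genes, so that the X-linked share is not a separate result. All lines share the scaling, and these correlations are a description without a test.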

How the data were processed

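RNA from 14 mouse ES cell lines was sequenced as stranded total RNA libraries, read as 50-base single ends, aligned to mm9 with TopHat2 and quantified with Cufflinks and Cuffdiff, per the labels and the study's methods. Deposited by the authors is a single value for each gene in each line, a read signal scaled to a common depth (sums of 28150946 to 30657803 per line). In each line 97.5% to 98.3% of values are whole multiples of 1 step (tolerance 0.02), which gives the depths in reads. As the values are not whole counts, tests for read counts were not run. Libraries were made in batches to which the sources do not assign lines, so batches were not modelled.

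Values were used as log2(value + 5). Tested were genes whose value reached 10 in 6 or more lines (XX against XY, 12 lines) or in 2 or more (5 groups fitted together, 14 lines), with limma 3.58.1 in R 4.3.3 (trended variance, moderated statistics, Benjamini-Hochberg adjustment over all genes tested, FDR 0.05), and 15 genes at 0 throughout a group but at 100 or more in another were left out. The fits were tested on simulated data. Ratios were compared by exact permutation tests, and correlations by permutation (100000 resamples). Positions and exon lengths are from NCBIM37, the mm9 build, and joins were made in Python 3.11.15. The 10 genes are named in every comparison, other pathway genes where they were called or to describe a list, and the genes most alike by Pearson correlation. Some genes of these lists are not reported here. The members and lists were chosen with earlier results of these data known. Alternatives were other pseudocounts, filters and scalings, the cross or the feeder level as a covariate, a block on the replicate number, a fit on the compared groups alone, lines left out, and, chosen after seeing the data, quantile normalization, genes listed at 0 kept and the feeder covariate for ratios. Numbers do not pair the lines: same-numbered BC XX and BC XY lines had correlations of deviations of -0.17, 0.25 and -0.06.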

Additional observations from a re-analysis of the deposited data

Results flagged for a closer look

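In 20 sets of 6 lines (each of the 10 genes in XX and in XY lines), a line was called far from the others when its gap to the nearest value exceeded 0.625 of the range on the log2 scale, which chance alone does in about 1 of 20 sets. It did so in 2 of the 20. Nodal in XX lines was at 1240 in BC XX 3, with a gap of 0.711 of the range, while the other XX lines were at 1859 to 2192. BC XX 3 also had the highest summed signal of feeder markers (123893) and the lowest of ES cell markers (77472), and their part was not tested. Gdf3 in XY lines was at 1499 in BC XY 3, with a gap of 0.832 of the range, while the other XY lines were at 3104 to 3593.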

How the results depend on the processing

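Of the 10 genes, the number called for XX against XY was 1 (Lefty2) under 9 of 11 alternatives, 0 with the feeder level as a covariate and 2 with the cross as a covariate, which adds Bmp4, and 1 to 2 when single lines were left out (2 without CB XX 1 and without CB XY 1). For BC XX against BC XY it was 0 with a pseudocount of 1, no filter, a minimum of 50, the feeder covariate, quantile normalization (chosen after seeing the data), the groups of the comparison alone or the replicate number as a block, and 0 to 1 when single lines were left out. For CB XX against CB XY it was 0 with no filter, with the groups of the comparison alone and without the lines CB XY 2 and 3, and 0 to 1 when single lines were left out (0 without CB XX 2, CB XX 3, CB XY 2 or CB XY 3). For BC XX against BC XO it was 2 (Lefty2 and Bmp4) with the replicate block, and for BC XX against CB XX 0 to 2 when single lines were left out (Id3 without BC XX 1, Id1 and Id3 without CB XX 3). The block changed no other count. The number of all genes called moved as well. For XX against XY it was 797 in the main fit, 280 with the feeder covariate and 1697 with the cross covariate. It was 1746 without CB XX 1 and 453 without CB XY 1. For BC XX against BC XY it was 927, 7 with the feeder covariate and 0 with the block. For BC XX against BC XO it was 758, 47 with the feeder covariate and 2167 with the block. For BC XX against CB XX it was 1162, 79 with the feeder covariate and 78 with the groups of the comparison alone. It was 2015 without BC XX 1 and 2576 without CB XX 3. The cause of these changes was not tested. With the feeder covariate, the BC differences turned to -7e-04 for Inhbb and -0.055 for Bmp1. Lefty2 over both crosses ranged from 0.68 to 0.96 under alternatives and from 0.81 to 1.03 with single lines left out (adjusted p 0.0137 to 0.0424, limma), and its ratio to Nodal from 1.06 to 1.30 with lines left out (exact p up to 0.00476) and 0.77 with the feeder covariate. Tdgf1 to Gdf3 ranged from 0.77 to 0.96 with lines left out and was 0.86 with the feeder covariate. Dusp9 was called without 1 of 12 single lines, Acvrl1 without 2 and Msx1 without 6. Of 1460 differences of the 10 genes under alternatives, 91 turned in sign. For comparisons with CB XX, the pooled comparison and the interaction, no paired analysis was possible because the CB XX columns carry no number of a labelled line. In the other comparisons the replicate block was run, and there lines share only a number. Tests for read counts were not run, since the scaled values are not whole. Depth set no floor for the 10 genes, which were all above 3 reads in every line.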
